A study of Mus musculus with 24 samples.

Results

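Hearts of the severe line of MHC-CELFΔ mice were compared with wild type hearts at 3 weeks of age, on the 7 of the 24 arrays of the series that carry those labels. The 3 severe line hearts came from hemizygous females of line MHC-CELFΔ-10, labelled transgenic. The 4 wild type hearts came from wild type females, of which 2 were litter controls of the severe line and 2 of the mild line, MHC-CELFΔ-574. All 7 mice were of the FVB/N strain and had no treatment, and each array held the RNA of 1 whole heart, measured on an Illumina MouseWG-6 v2 BeadChip. The transgene is a nuclear dominant negative CELF protein made under the α-myosin heavy chain promoter, so it acts in heart muscle cells after birth. Each line stands for 1 site of integration, and the severe line is the one of higher expression. The other arrays are 3 mild line hearts of 3 weeks and, at 24 weeks, 5 severe line, 5 mild line and 4 wild type hearts.

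CELF proteins bind RNA in the nucleus and the cytoplasm, where they regulate alternative splicing and the stability and translation of transcripts. In heart muscle they take part in the change from fetal to adult splice forms after birth. Serum response factor (SRF) is a transcription factor that binds the CArG box and drives genes of the contractile apparatus, genes of the actin cytoskeleton and immediate early genes. HOPX and FHL2 are known as inhibitors of SRF in the heart. Genes of fetal and skeletal muscle, natriuretic peptides and stress proteins of the Z-disc are commonly raised in diseased heart muscle, while genes of fatty acid oxidation and mitochondria are commonly lowered.

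The hearts carried the markers of heart muscle. Of the heart muscle markers all 17 tested had a detected probe on 1 or more of the 7 arrays, and their summed linear signal was 321673 to 337661 in the severe line and 338992 to 350591 in wild type. The share of probes detected was 39.07% to 39.92% on severe line arrays and 33.85% to 39.83% on wild type arrays, and any pair of the 7 arrays correlated between 0.9722 and 0.9935. The lowest raw intensity split the 24 arrays in title order, with 54.2 to 62.8 on the first 12 and 38.9 to 47.2 on the last 12. Severe line replicates 1 and 2 and both wild type mice of the severe line belong to the first 12, and severe line replicate 3 and both wild type mice of the mild line to the last 12. Among wild type mice the litter and this split cannot be told apart. Between the 2 wild type litters 0 of 12011 genes differed in limma at an adjusted p under 0.05, also when the arrays were scaled to a common median, and 254 did at an unadjusted p under 0.05. Severe line replicate 2 stood apart from the other severe line arrays, and some results, not all, are given with and without it.

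In all, 68 of 12011 genes were affected, which means a fold change of 2 or more that also had either an adjusted p below 0.05 or an unadjusted p below 0.001. Of these 56 were higher (0.466% of the genes tested) and 12 were lower (0.0999%) in the severe line, and all 68 passed the adjusted p. With no fold threshold, 320 genes were higher (2.66%) and 235 were lower (1.96%) at an adjusted p under 0.05. These shares are the background for the counts of risen and fallen list members below. Below, a gene is said to have risen or fallen only past that adjusted p, changes are log2 differences of group means with their standard error (SE; n = 3 against 4 arrays), and p-values come from limma. They measure the spread between mice. With every array scaled to a common median in place of the quantile normalization, the median of all genes moved up by 0.11, and 91 genes were affected upward and 3 downward, and 241 and 11 passed the adjusted p. Of the 68 genes, 52 higher and 6 lower ones still passed under that scaling, and *Acta1*, *Emp1*, *Hsp90aa1*, *Synpo2l*, *Bcl11b*, *Ces1d*, *Chac1*, *Fbp2*, *Gpt* and *Tbc1d10c* did not. Within the first 12 arrays 37 genes were affected upward and 7 downward, and within the last 12 the numbers were 59 and 19. The last 12 hold 1 severe line array of 3 weeks, replicate 3, so values there rest on that array, which is assumed to vary like the other groups. In bulk heart RNA, fewer cells of a type and less RNA per cell cannot be told apart.

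The severe line arrays did not overlap the wild type arrays for any of the 56 genes affected upward, or for 11 of the 12 affected downward. Over all genes tested, 1026 had every severe line array above every wild type array and 1057 had every one below. Severe line replicate 2 lay nearest to wild type for 51 of the 56 higher and 11 of the 12 lower genes. Without it 132 genes were affected, among them all 68, with 99 higher and 33 lower, and 471 and 343 genes passed the adjusted p. Without severe line replicate 1 these numbers were 153 and 76, and without replicate 3 they were 127 and 84. The genes affected downward were 6 without severe line replicate 1 and 7 without the first wild type mouse of the mild line. Of the 68 genes, 56 passed the adjusted p whichever 1 of the 7 arrays was left out. The 12 that did not are named with their values where they are described.

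**Figure D1:**
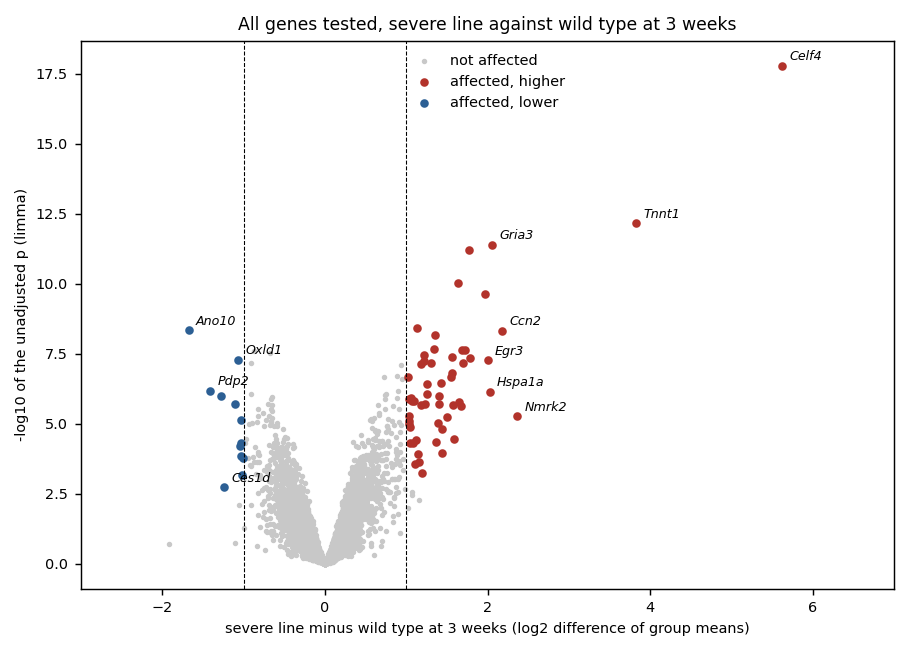
All 12011 genes tested, with the log2 difference between severe line and wild type hearts at 3 weeks on the x axis and the -log10 of the unadjusted p from limma on the y axis. Red points are the 56 genes affected upward, blue points the 12 affected downward and grey points the rest. Dashed lines mark a fold change of 2, and *Celf4* and *Tnnt1* lie farthest to the right.

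A probe of *Celf4*, itself a member of the CELF family of RNA-binding proteins, gave the largest difference. It read 12.08, 11.19 and 12.72 on the log2 scale in severe line replicates 1, 2 and 3, and 6.35, 6.33, 6.49 and 6.35 in wild type, always in the order of replicates 1 and 2 of the severe line's wild type and then of the mild line's. No wild type array detected the probe, so the signal was at least 39.2-fold higher in the severe line. This bound sets the mean of the bright group against the lowest detected value of each dim array, or the probe's own value where that was higher. Another 3 *Celf4* probes differed by 0.03, -0.04 and 0.10 (adjusted p over all probes 0.957, 0.907 and 0.775), with few detections in either group. Whether the first probe measures the transgene was not tested. Of the remaining CELF genes, *Celf2* rose by 0.53 (SE 0.12, adjusted p = 0.00768) and *Celf1* had 0.09 (adjusted p = 0.801). The rise of *Celf2* did not pass without severe line replicate 3 (0.47, adjusted p = 0.0718). Other *Celf2* probes had 0.39, 0.29 and 0.16 (adjusted p over all probes 0.395, 0.152 and 0.748) and did not pass.

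Some sarcomere genes of fetal heart and skeletal muscle rose, and none of the adult ventricular sarcomere genes tested passed the test. Of 17 fetal and skeletal isoforms 5 rose and 0 fell, with a median log2 difference of 0.40. Of 24 adult sarcomere genes 0 rose and 0 fell, with a median of 0.02, beside 0.00 over all genes tested. Without severe line replicate 2, 0 of these adult genes rose and 1 fell. *Tnnt1*, which encodes slow skeletal troponin T, the subunit that holds the troponin complex on tropomyosin, read 14.01, 13.15 and 14.25 in the severe line and 9.60, 10.03, 10.42 and 9.87 in wild type on the log2 scale. All 3 severe line hearts lay far above all wild type hearts. The difference was 3.82 (SE 0.26, adjusted p = 4.12e-09), 14.1-fold, and stayed between 3.60 and 4.15 with any 1 array left out. *Myl1*, an essential light chain of skeletal muscle myosin, read 14.53, 13.96 and 14.36 against 13.07, 13.00, 13.13 and 13.07, a rise of 1.22 (SE 0.15, adjusted p = 2.56e-05). Its groups did not overlap, and 2 further *Myl1* probes had 1.72 (adjusted p over all probes 0.0374) and 0.00 (0.998, little detected).

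*Tpm3*, the slow muscle tropomyosin, read 9.95, 9.07 and 9.74 in the severe line against 7.95, 7.62, 8.10 and 8.93 in wild type on the log2 scale. Severe line replicate 2 lay only just above the second wild type mouse of the mild line. The rise of 1.43 (SE 0.31, adjusted p = 0.00711) did not pass without severe line replicate 1 (1.25, adjusted p = 0.0685) or without replicate 3. The probes of *Tpm3* disagreed in size, with 2.44 (SE 0.22, adjusted p over all probes 4.12e-07) for 1 other probe and 0.38, 0.14 and 0.14 for another 3. *Mylk2*, the kinase of skeletal muscle myosin light chain, was detected on none of the wild type arrays and was at least 2.72-fold higher in the severe line (adjusted p = 2.2e-07). *Myl12a*, a regulatory light chain of nonmuscle myosin, rose by 0.51 (adjusted p = 0.00941), but not without severe line replicate 1 (0.35, adjusted p = 0.118). Among adult forms, *Myh6*, the main myosin heavy chain of the mouse ventricle, had 0.02 (adjusted p = 0.955), the cardiac actin gene *Actc1* -0.02 (0.976) and the ventricular light chain gene *Myl2* 0.00 (0.998). *Myh6* and *Myl2* lay near the highest value on any array (15.16), where differences may be understated. *Myh7*, the slow myosin heavy chain of fetal ventricle, had 0.40 (SE 0.25, adjusted p = 0.49).

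Skeletal muscle markers are given beside these genes because both hold *Myl1*. The summed linear signal of the 12 skeletal muscle markers tested was 18319 to 25697 in the severe line and 10622 to 11335 in wild type. *Myl1* alone made most of this sum in both groups. Of them 1 rose, *Myl1*, and 1 fell, *Tmod4*, a tropomodulin of skeletal muscle, at -0.94 (SE 0.21, adjusted p = 0.009), which did not pass without severe line replicate 3 (-0.79, adjusted p = 0.0922) or replicate 1. The median over the 12 was 0.02, and 6 lay above 0. The fast skeletal genes *Tnnt3* and *Mybpc1* were not detected on any of the 7 arrays, and the fast myosin genes *Myh1*, *Myh2* and *Myh4* were not kept by the detection filter. *Sypl2*, a protein of the triad junction of skeletal muscle, was affected and read 8.42, 7.70 and 8.53 against 6.88, 6.92, 6.76 and 6.90 on the log2 scale. It rose by 1.35 (SE 0.15, adjusted p = 8.52e-06), with no overlap between the groups.

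**Figure D2:**
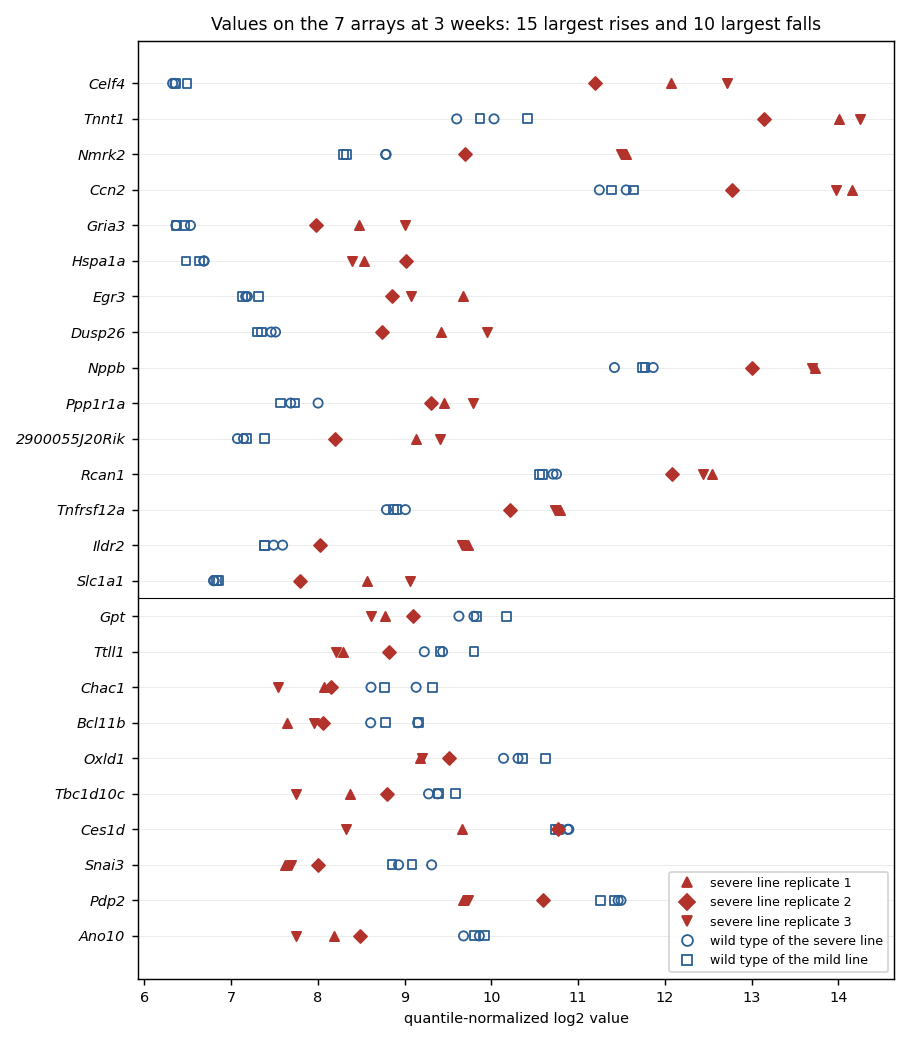
Quantile-normalized log2 values on the 7 arrays of 3 weeks for the 15 largest rises (upper block) and the 10 largest falls (lower block) among affected genes, 1 symbol per array. Red symbols are severe line replicates and blue open symbols wild type mice of either litter. Severe line replicate 2 (diamond) lies nearest to wild type in most rises but is the highest array for *Hspa1a*, and for *Ces1d* it lies among the wild type arrays.

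Of 43 SRF targets tested 12 rose and 0 fell, 39 lay above 0 and the median log2 difference was 0.40, beside 2.66% of all genes that rose and a median of 0.00 over all genes. The 12 were *Ccn2*, *Egr3*, *Nppb*, *Rcan1*, *Tpm3*, *Synpo2l*, *Tagln*, *Acta1*, *Pdlim1*, *Fhl1*, *Pdlim7* and *Tagln2*. For 7 of them (*Ccn2*, *Egr3*, *Nppb*, *Rcan1*, *Tagln*, *Acta1* and *Pdlim1*) the rise passed with any 1 array left out. With a common median scaling 10 of 43 rose and 0 fell, and the median was 0.51 above that of all genes. Within the first and the last 12 arrays the median was 0.35 and 0.40. The list overlaps those of hypertrophy genes and fetal isoforms.

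The CArG box was sought by its letters in the 300 bases around each RefSeq start (250 before and 50 after, build GRCm38.p6), on both strands. It is a palindrome in form, so 1 match serves both strands, and it may overlap other motifs. It was present in 535 of 32851 promoters (1.629%), in 177 of 12346 promoters of the genes tested (1.434%), and in 12 of 44 promoters of SRF targets (27.273%), where promoters were found for 34 of the 43 genes and 9 genes had a match. Of the genes affected upward, 36 of 56 had promoters, and 2 of their 52 promoters held the box (3.846%), those of *Acta1* and of *4833412C05Rik*. Of the genes affected downward, 7 of 12 had promoters and 0 of 7 held it. Of the 9 SRF targets with a match, *Acta1* and *Fhl1* were among those that rose. The others, *Actc1*, *Cnn2*, *Egr2*, *Lima1*, *Myl9*, *Srf* and *Vcl*, were not. The 4 promoter stretches below set genes that rose beside one that did not pass the test and carries the same box as *4833412C05Rik*. They are examples and do not show that the box goes with a rise. Capitals mark the CArG box, each sequence runs 5′ to 3′ along the gene's own strand with 40 bases on either side, and a match is a description of letters, not a site of binding.
Acta1 (chr8:123894799-123894888, minus strand, box at -73 from the start): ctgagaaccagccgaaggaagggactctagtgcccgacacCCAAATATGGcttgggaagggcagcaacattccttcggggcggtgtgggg
Fhl1 (chrX:56779541-56779630, plus strand, box at -102): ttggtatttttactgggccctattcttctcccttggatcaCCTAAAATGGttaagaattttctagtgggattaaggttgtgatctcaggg
4833412C05Rik (chr7:67803582-67803671, minus strand, box at -135): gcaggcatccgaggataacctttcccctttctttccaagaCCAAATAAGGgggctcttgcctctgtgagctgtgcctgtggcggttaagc
Actc1 (chr2:114052873-114052962, minus strand, box at -47): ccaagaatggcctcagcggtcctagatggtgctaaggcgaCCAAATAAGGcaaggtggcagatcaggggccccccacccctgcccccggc

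*Acta1*, the actin of skeletal muscle and fetal heart, whose box heads the sequences above, read 14.20, 13.39 and 14.14 in the severe line and 12.67, 13.01, 12.85 and 12.97 in wild type on the log2 scale. The groups did not overlap, and the rise was 1.04 (SE 0.18, adjusted p = 0.00137). *Fhl1*, a LIM protein of striated muscle, read 12.36, 11.38 and 12.80 against 11.50, 11.43, 11.40 and 11.09, so that severe line replicate 2 lay inside the wild type range. Its rise of 0.82 (SE 0.22, adjusted p = 0.0283) was lost without any 1 of severe line replicates 1 and 3 and both wild type mice of the mild line (highest adjusted p = 0.295, at 0.51, without severe line replicate 3). *4833412C05Rik*, a RIKEN gene without a known role here, read 8.82, 7.30 and 8.93 against 6.89, 6.94, 6.69 and 6.90 and rose by 1.50 (SE 0.25, adjusted p = 0.000918). *Actc1* read 14.13, 14.16 and 13.82 against 14.07, 14.13, 13.81 and 14.22, with full overlap. *Tagln*, the actin-binding transgelin of smooth muscle, rose by 1.05 (SE 0.19, adjusted p = 0.00148), from a probe detected on 1 wild type array, and *Pdlim1*, a PDZ and LIM protein of actin filaments, rose by 0.93 (SE 0.17, adjusted p = 0.00143).

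*Srf* and its known inhibitors did not pass the test. *Srf* itself read 10.23, 10.21 and 10.44 in the severe line and 9.95, 9.90, 10.15 and 9.92 in wild type on the log2 scale. Its groups did not overlap, but the difference of 0.31 (SE 0.11) had an adjusted p of 0.12. *Hopx* read 11.42, 12.28 and 11.29 against 12.08, 12.41, 12.30 and 12.42, with severe line replicate 2 inside the wild type range, and the difference was -0.64 (SE 0.29, adjusted p = 0.264). *Fhl2* read 10.88, 11.47 and 10.89 against 12.16, 11.88, 12.08 and 11.86. All severe line hearts lay below all wild type hearts, with a difference of -0.91 (SE 0.31, adjusted p = 0.106). Of the list of SRF, its cofactors and FHL proteins, 2 of 19 rose and 0 fell. *Abra*, a Z-disc protein that activates SRF through actin and its cofactors, read 11.35, 10.07 and 10.67 against 9.20, 8.96, 9.30 and 9.09 and rose by 1.56 (SE 0.19, adjusted p = 2.99e-05). The other was *Fhl1*.

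**Figure D3:**
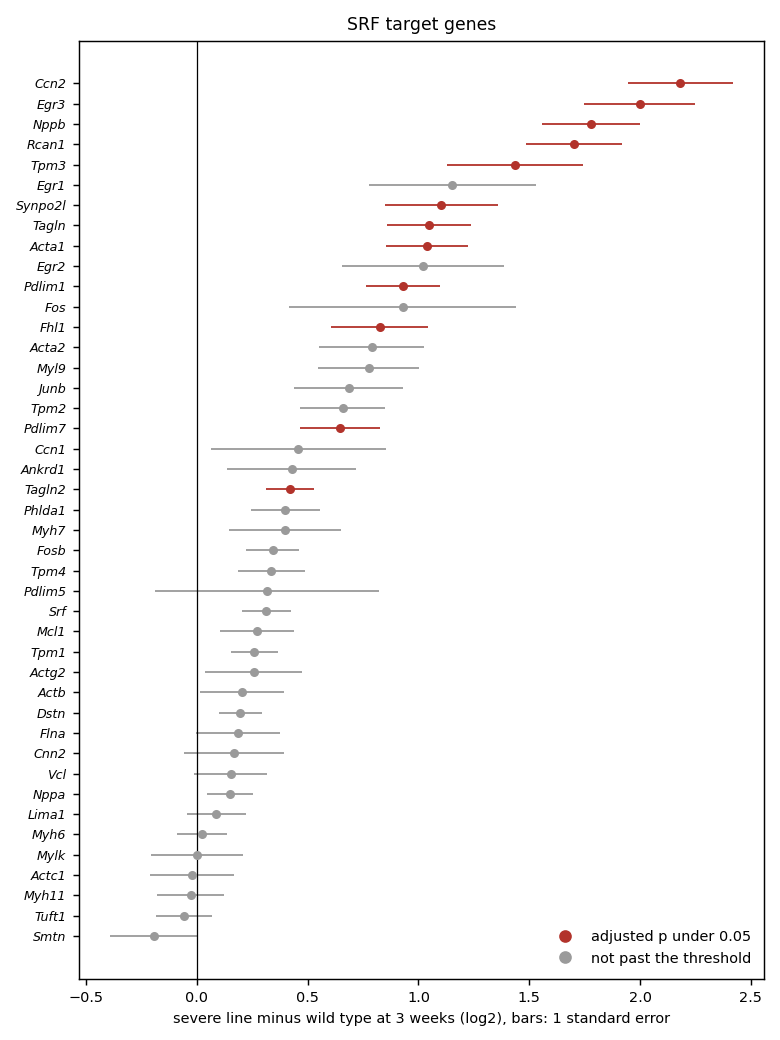
The 43 SRF targets tested, ordered by their log2 difference between severe line and wild type hearts at 3 weeks (x axis). Points are differences of group means and bars 1 standard error, with red for an adjusted p under 0.05 and grey for the rest. The 12 red points all lie to the right of 0, from *Ccn2* at 2.18 to *Tagln2* at 0.42.

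Of 27 genes of hypertrophy and Z-disc stress tested 14 rose and 0 fell, beside 2.66% of all genes that rose. The median log2 difference of the 27 was 0.64, and 9 of the 14 passed with any 1 array left out. With a common median scaling 11 rose. *Nppb*, which encodes the natriuretic peptide BNP, read 13.74, 13.00 and 13.70 in the severe line and 11.42, 11.87, 11.77 and 11.74 in wild type on the log2 scale. It rose by 1.78 (SE 0.22, adjusted p = 2.99e-05) with no overlap, while *Nppa*, the atrial natriuretic peptide, had 0.15 (adjusted p = 0.536). *Nppa* read 14.55 to 15.01, near the highest value on any of the 24 arrays (15.16), so a difference there may be understated. *Rcan1*, an inhibitor of the phosphatase calcineurin that calcineurin itself induces, read 12.54, 12.09 and 12.44 against 10.71, 10.75, 10.59 and 10.56. It rose by 1.70 (SE 0.22, adjusted p = 3.55e-05), again with no overlap. *Tnfrsf12a*, the receptor of the cytokine TWEAK, read 10.79, 10.22 and 10.73 against 9.01, 8.79, 8.91 and 8.87 and rose by 1.68 (SE 0.20, adjusted p = 2.23e-05).

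Further members of the list include actin-binding proteins. *Xirp2*, an actin-binding repeat protein, rose by 1.55 (SE 0.21, adjusted p = 8.62e-05). *Flnc*, muscle filamin, rose by 1.04 (SE 0.17, adjusted p = 0.000864) and *Synpo*, synaptopodin, by 1.02 (SE 0.14, adjusted p = 8.69e-05). *Synpo2l*, their Z-disc relative, rose by 1.10 (SE 0.26, adjusted p = 0.0123), but not without severe line replicate 3 (0.92, adjusted p = 0.123) or without replicate 1. For *Xirp2*, *Flnc*, *Synpo* and *Synpo2l* the severe line arrays lay above all wild type arrays. The ubiquitin hydrolase gene *Uchl1* rose by 0.88 (SE 0.17, adjusted p = 0.00298). The intermediate filament gene *Des* (0.70) and the muscle genes *Klhl40* (0.67) and *Ankrd2* (at least 1.17-fold, not detected in wild type) rose over all arrays but did not pass without some of the arrays, with highest adjusted p of 0.182 for *Des*, 0.282 for *Klhl40* and 0.139 for *Ankrd2*. *Ankrd1*, a stress protein of the Z-disc, had 0.43 (SE 0.29, adjusted p = 0.525). Of 30 genes of the intercalated disc and costamere 1 rose and 0 fell, with a median of 0.08.

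Regulators of calcineurin and protein phosphatase 1 moved in both directions. Of 26 tested 4 rose and 2 fell, with a median of 0.07. *Ppp1r1a*, an inhibitor of protein phosphatase 1, read 9.45, 9.30 and 9.79 in the severe line and 7.69, 8.00, 7.57 and 7.74 in wild type on the log2 scale. The 3 severe line arrays lay close together and far above wild type, a rise of 1.77 (SE 0.14, adjusted p = 1.93e-08). *Carhsp1*, an RNA-binding phosphoprotein and substrate of calcineurin, rose by 1.18 (SE 0.19, adjusted p = 0.000447), and *Ppp1r3c*, which targets protein phosphatase 1 to glycogen, rose by 0.53 (SE 0.10, adjusted p = 0.00366). *Akap5*, a scaffold that holds calcineurin and protein kinase A at the membrane, fell by 0.65 (SE 0.11, adjusted p = 0.000618) and passed with any 1 array left out, though 0 genes of the list fell with a common median scaling. The other fall was *Ppp1r1b*, an inhibitor like *Ppp1r1a*, at -0.55 (adjusted p = 0.0195), which was lost without any 1 of 5 arrays (highest adjusted p = 0.166 without severe line replicate 3).

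Growth signals and immediate early genes rose in part. *Ccn2*, connective tissue growth factor, read 14.16, 12.78 and 13.98 in the severe line and 11.25, 11.55, 11.64 and 11.38 in wild type on the log2 scale. The groups were far apart, and the rise was 2.18 (SE 0.24, adjusted p = 6.32e-06), with 1.85 (adjusted p over all probes 0.000628) for another *Ccn2* probe. Of 20 immediate early genes 2 rose and 0 fell, with a median of 0.39, and with a common median scaling 4 rose. *Egr3*, a zinc finger transcription factor, read 9.68, 8.85 and 9.07 against 7.17, 7.19, 7.32 and 7.14 and rose by 2.00 (SE 0.25, adjusted p = 3.22e-05). *Atf3*, a stress-induced transcription factor, read 8.85, 8.43 and 8.43 against 7.13, 6.86, 6.83 and 7.12 and rose by 1.58 (SE 0.31, adjusted p = 0.00351). Neither gene had overlapping groups. *Egr1* and *Fos* were spread more widely, with 1.15 (SE 0.38, adjusted p = 0.0833) for *Egr1* and 0.93 (SE 0.51, adjusted p = 0.389) for *Fos*, and both lay above wild type in all 3 severe line hearts.

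Among phosphatases that act on MAP kinases and their relatives, 4 of 21 rose and 1 fell. *Dusp26* led them, at 9.42, 8.74 and 9.95 in the severe line and 7.51, 7.46, 7.35 and 7.30 in wild type on the log2 scale. Its groups did not overlap, and the rise of 1.96 (SE 0.18, adjusted p = 4.56e-07) stayed between 1.67 and 2.28 with any 1 array left out. *Dusp8* rose by 0.92 (SE 0.17, adjusted p = 0.00213), and *Dusp23* was the fall, at -0.77 (adjusted p = 0.0499), which passed in 1 of 7 omissions only (highest adjusted p = 0.213). Further signalling genes were affected with no overlap between groups. *Hbegf*, a ligand of the EGF receptor, rose by 1.05 (SE 0.16, adjusted p = 0.000323), and *Sphk1*, which makes sphingosine 1-phosphate, by 1.08 (SE 0.17, adjusted p = 0.000382). *Tlr4*, a receptor of innate immunity, rose by 1.18 (SE 0.15, adjusted p = 3.67e-05), and *Nuak1*, a kinase related to AMPK, by 1.34 (SE 0.16, adjusted p = 2.23e-05). *Fgf6*, a fibroblast growth factor of muscle, read 8.62, 7.63 and 7.81 against 6.77, 6.59, 6.47 and 6.67 and rose by 1.39 (SE 0.24, adjusted p = 0.00126), from a probe detected on 1 wild type array.

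A list of cell death genes and p53 targets held 5 rises and 0 falls among 24 tested, with a median of 0.22. Its largest rise was that of *Tnfrsf12a*, given above. *Gadd45g*, a growth arrest gene, read 11.56, 11.75 and 11.79 in the severe line and 10.17, 10.40, 10.53 and 10.66 in wild type on the log2 scale. Its severe line arrays lay within a narrow range, and it rose by 1.26 (SE 0.18, adjusted p = 0.000131). *Cdkn1a*, the cell cycle inhibitor p21, read 9.81, 9.45 and 11.03 against 9.32, 8.80, 9.04 and 8.65. Severe line replicate 3 was the highest array by more than 1 unit, and the rise of 1.14 (SE 0.25, adjusted p = 0.00766) was 0.68 (adjusted p = 0.0767) without it. Of 37 cell cycle genes 2 rose and 0 fell, *Cdkn1a* and the cyclin gene *Ccnd2*, the latter lost without any 1 of 5 arrays (highest adjusted p = 0.214).

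Some chaperones of the cytosol rose. Of 33 heat shock proteins and cochaperones 4 rose and 0 fell, with a median of 0.22, and of 20 endoplasmic reticulum chaperones and unfolded protein response genes 0 rose and 0 fell, with a median of 0.08. The difference between these lists was not tested. *Hspa1a*, the inducible Hsp70, read 8.54, 9.01 and 8.39 in the severe line and 6.69, 6.68, 6.48 and 6.63 in wild type on the log2 scale, and its probe was detected on 1 wild type array. Here severe line replicate 2 was the highest array, the groups did not overlap and the rise was 2.03 (SE 0.30, adjusted p = 0.000233). The near-identical copy *Hspa1b* had 0.26 (adjusted p = 0.189) on a probe not detected in wild type, and the arrays may not tell the copies apart. *Hsp90aa1*, the inducible Hsp90, rose by 1.05 (SE 0.21, adjusted p = 0.00421) and *Hspa1l*, a member of the Hsp70 family, by 1.03 (SE 0.16, adjusted p = 0.000336). The fourth member that rose was *Hspa2*, at 0.61 (adjusted p = 0.0477, and at most 0.203 with 1 array left out). *Fkbp5*, a cochaperone of Hsp90 that glucocorticoids induce and that is not in the list, read 7.71, 8.39 and 8.49 against 6.93, 6.91, 6.49 and 6.74 and rose by 1.43 (SE 0.20, adjusted p = 0.000129).

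Some matrix genes rose at this age. Of 30 collagen chains 6 rose and 0 fell, with a median of 0.30, and of 50 other matrix proteins and enzymes 8 rose and 1 fell, with a median of 0.31. Over all genes tested 2.66% rose and 1.96% fell. Without severe line replicate 2 the numbers were 13 and 0 for collagens, and 14 and 1 for other matrix genes. *Col8a1*, a short-chain collagen, read 11.40, 10.57 and 10.81 in the severe line and 9.09, 9.51, 9.09 and 9.75 in wild type on the log2 scale, a rise of 1.57 (SE 0.25, adjusted p = 0.000437). *Col22a1*, a collagen of tissue junctions, was not detected in wild type and was at least 1.73-fold higher (adjusted p = 0.00113). *Mfap5*, a microfibril protein, rose by 1.26 (SE 0.19, adjusted p = 0.000261), and *Mfap4*, another protein of the microfibrils, by 1.16 (SE 0.26, adjusted p = 0.0112), the latter not without severe line replicate 1 (0.89, adjusted p = 0.124) or replicate 3. The tendon transcription factor gene *Scx* rose by 0.78 (SE 0.14, adjusted p = 0.00177), the fibulin gene *Fbln2* by 0.67 (SE 0.11, adjusted p = 0.000714) and *P3h2*, a prolyl hydroxylase of collagens, by 1.09 (SE 0.17, adjusted p = 0.000368). The fall was that of the laminin gene *Lamb3*, at -0.83 (adjusted p = 0.00766, and at most 0.0982 with 1 array left out). The main fibrillar chains had 0.71 (*Col1a1*, adjusted p = 0.176) and 0.28 (*Col3a1*, adjusted p = 0.683).

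The summed signal of 18 fibroblast markers was 30182 to 36973 in the severe line and 22235 to 26553 in wild type, with no overlap, and 2 of the 18 rose. These were *Mgp*, matrix Gla protein, at 0.88 (adjusted p = 0.00982, and 0.0941 without severe line replicate 1) and *Col1a2*, a chain of type I collagen, at 0.39 (adjusted p = 0.0263, and at most 0.195 with 1 array left out), so that neither passed in every omission. Their part in the matrix result was not tested. The summed signal of 17 smooth muscle and pericyte markers was 39989 to 60582 against 29928 to 40009, where the ranges overlapped slightly, and 2 rose, *Tagln* and *Des*, both shared with the muscle lists above. Without severe line replicate 2 it was 6 of 17. Of the genes of TGF-beta and CCN signalling 6 of 31 rose and 0 fell, of which 1, *Ccn2*, passed with any 1 array left out.

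*Nmrk2*, the muscle kinase that makes NAD from nicotinamide riboside, read 11.56, 9.70 and 11.49 in the severe line and 8.78, 8.79, 8.30 and 8.33 in wild type on the log2 scale. All severe line hearts lay above wild type, but severe line replicate 2 reached less than the other two. The difference was 2.37 (SE 0.40, adjusted p = 0.000879) and rose to 2.97 without that array. The 3 *Nmrk2* probes disagreed, since a second gave 1.91 (SE 0.39, adjusted p over all probes 0.00598) and the third -0.80 (SE 0.15, 0.00278). Among the 14 genes of NAD synthesis and use 1 rose and 1 fell, the latter *Naprt*, which makes NAD from nicotinic acid, at -0.68 (adjusted p = 0.0134, and at most 0.123 with 1 array left out). *Nampt*, of the salvage route from nicotinamide, had -0.13 (adjusted p = 0.793).

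A set of affected genes was put together here after their values were seen, and no list stands behind it. *Gria3*, a glutamate receptor subunit, read 8.47, 7.98 and 9.01 in the severe line and 6.36, 6.53, 6.37 and 6.46 in wild type on the log2 scale, where it was not detected, so that it was at least 3.43-fold higher (adjusted p = 1.63e-08). *Slc1a1*, a glutamate transporter, read 8.57, 7.79 and 9.06 against 6.80, 6.80, 6.86 and 6.84 and rose by 1.65 (SE 0.26, adjusted p = 0.000392). *Rab15*, a small GTPase of endosomes, read 9.10, 8.23 and 9.46 against 7.50, 7.62, 7.19 and 7.17 and rose by 1.56 (SE 0.21, adjusted p = 7.08e-05). In none of these did the groups overlap. *Kif1a*, a kinesin of synaptic vesicle precursors, rose by 1.23 (SE 0.19, adjusted p = 0.000437), *Slitrk4*, a membrane protein of synapses, by 1.13 (SE 0.12, adjusted p = 6.32e-06) and *Ppm1e*, a protein phosphatase, by 1.30 (SE 0.17, adjusted p = 3.55e-05). *Eno2*, neuronal enolase, rose by 1.12 (SE 0.22, adjusted p = 0.00366), but not without severe line replicate 3 (0.89, adjusted p = 0.0509). The summed signal of the 6 nerve and Schwann cell markers tested was 999 to 1077 in the severe line and 886 to 955 in wild type, and 1 of the 6 rose, *Uchl1*.

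Further affected genes were also taken up only after their values were seen. *Ildr2*, a membrane protein with an immunoglobulin-like domain, read 9.73, 8.02 and 9.67 in the severe line and 7.49, 7.59, 7.38 and 7.39 in wild type on the log2 scale, a rise of 1.68 (SE 0.27, adjusted p = 0.000472). *Chodl*, a membrane lectin, read 8.94, 6.95 and 8.56 against 6.79, 6.80, 6.68 and 6.59, a rise of 1.44 (SE 0.26, adjusted p = 0.00176) that was 2.04 without severe line replicate 2. In both, severe line replicate 2 was close to the wild type values. The unnamed transcript *2900055J20Rik* read 9.13, 8.19 and 9.41 against 7.07, 7.14, 7.17 and 7.39 and rose by 1.72 (SE 0.20, adjusted p = 2.23e-05). *Haus8*, of the augmin complex of the spindle, rose by 1.40 (SE 0.21, adjusted p = 0.000289), the Ras-like gene *Rasl11b* by 1.40 (SE 0.22, adjusted p = 0.000435) and the receptor-related gene *Lrp11* by 1.22 (SE 0.15, adjusted p = 3.26e-05). The remaining 3 were lost when some arrays were left out. *Meox1*, a homeobox gene, rose by 1.36 (adjusted p = 0.00396), but not without severe line replicate 1 (1.05, adjusted p = 0.0561). *Pde1b*, a phosphodiesterase that calmodulin activates, rose by 1.09 (adjusted p = 0.00424), but not without severe line replicate 3 (0.91, adjusted p = 0.0531) or replicate 1, and *Emp1*, a membrane protein of epithelia, by 1.19 (adjusted p = 0.0201), but not without any 1 of severe line replicates 1 and 3 and the wild type mice of the mild line (highest adjusted p = 0.149).

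The 12 genes affected downward include enzymes and regulators of metabolism. *Ano10*, of the anoctamin family of membrane proteins, read 8.19, 8.49 and 7.75 in the severe line and 9.86, 9.68, 9.92 and 9.81 in wild type on the log2 scale, more than 1 unit apart at their closest, with a difference of -1.67 (SE 0.18, adjusted p = 6.32e-06). *Pdp2*, the phosphatase that activates pyruvate dehydrogenase, read 9.67, 10.60 and 9.73 against 11.49, 11.46, 11.26 and 11.42, a difference of -1.41 (SE 0.21, adjusted p = 0.000222). *Gpt*, alanine aminotransferase, read 8.77, 9.10 and 8.62 against 9.80, 9.63, 9.83 and 10.18 and fell by 1.03 (SE 0.18, adjusted p = 0.0011). None of these overlapped. *Fbp2*, muscle fructose bisphosphatase, differed by -1.01 (SE 0.26, adjusted p = 0.0231), but did not pass without severe line replicate 1 (-0.69, adjusted p = 0.229) or without the second wild type mouse of the mild line. *Fah*, which ends tyrosine breakdown, differed by -1.0 (SE 0.22, adjusted p = 0.00937), but did not pass without severe line replicate 1 (-0.94, adjusted p = 0.0665). *Ces1d*, a carboxylesterase that hydrolyses triacylglycerol, read 9.67, 10.77 and 8.32 against 10.89, 10.88, 10.77 and 10.73, so that severe line replicate 2 lay among the wild type arrays. Its difference of -1.23 (SE 0.35, adjusted p = 0.0435) passed in 1 of 7 omissions only, that of severe line replicate 2 (-1.83), and was -0.60 (adjusted p = 0.412) without replicate 3.

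The other falls were of several kinds. *Snai3*, a zinc finger transcription factor of the Snail family, read 7.62, 8.01 and 7.69 in the severe line and 8.93, 9.31, 9.09 and 8.85 in wild type on the log2 scale, a difference of -1.27 (SE 0.19, adjusted p = 0.000292). *Bcl11b*, a transcription factor known from T cells, read 7.64, 8.06 and 7.95 against 8.61, 9.15, 9.16 and 8.78 and fell by 1.04 (SE 0.21, adjusted p = 0.00492). *Tbc1d10c*, an inhibitor of Ras and calcineurin known from lymphocytes, read 8.37, 8.80 and 7.74 against 9.28, 9.38, 9.39 and 9.59 and fell by 1.11 (SE 0.17, adjusted p = 0.000435). Lymphocyte markers are given beside them. Of 12 tested 0 rose and 0 fell, their summed signal was 2486 to 2689 in the severe line and 2496 to 2740 in wild type, and the T cell genes *Cd3d* and *Cd3g* were not detected. *Oxld1*, an oxidoreductase-like protein, read 9.17, 9.51 and 9.20 against 10.14, 10.31, 10.62 and 10.36, a difference of -1.06 (SE 0.13, adjusted p = 3.22e-05). *Ttll1*, which adds glutamate to tubulin, read 8.29, 8.81 and 8.21 against 9.44, 9.23, 9.80 and 9.41, a difference of -1.03 (SE 0.21, adjusted p = 0.00421). *Chac1*, which breaks down glutathione, read 8.07, 8.16 and 7.54 against 9.13, 8.61, 9.32 and 8.77 and differed by -1.04 (SE 0.23, adjusted p = 0.00795), but did not pass without severe line replicate 3 (-0.84, adjusted p = 0.0922).

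Genes of mitochondria and fatty acid oxidation lay lower by small amounts. Of 73 mitochondrial ribosomal proteins 0 rose and 11 fell, beside 1.96% of all genes that fell, with a median of -0.32 over the 73. Of 36 genes of fatty acid uptake and oxidation 0 rose and 6 fell (median -0.27), of 73 of the respiratory chain and ATP synthase 0 and 3 (median -0.19), of 18 of the tricarboxylic acid cycle 0 and 1 (median -0.24), and of 21 of branched-chain amino acid breakdown 0 and 1 (median -0.30). None of these falls passed with every array left out in turn, and none passed with a common median scaling, where 0 members of each list fell. Relative to all genes, the medians under that scaling were -0.17 for mitochondrial ribosomal proteins, -0.20 for fatty acid oxidation and -0.15 for the respiratory chain. Without severe line replicate 2 the falls were 17, 8, 6, 2 and 4 in the order of the lists above. The heart muscle markers given at the start were also lower in sum in the severe line, with no overlap, and 0 of the 17 fell. Their part in this result was not tested.

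Single members show the size of these falls. *Acadvl*, the very long chain acyl-CoA dehydrogenase, read 11.62, 12.59 and 12.46 in the severe line and 12.85, 12.91, 12.92 and 12.94 in wild type on the log2 scale. Replicate 1 was the lowest array, and without it the difference of -0.68 (adjusted p = 0.0174) became -0.39 (adjusted p = 0.189). *Cpt2*, of the carnitine shuttle, had -0.59 (adjusted p = 0.0135, and at most 0.153 with 1 array left out). *Mrpl14*, of the large mitochondrial subunit, read 10.75, 11.05 and 10.64 against 11.40, 11.39, 11.68 and 11.27, a difference of -0.62 (adjusted p = 0.00766, and at most 0.0767 with 1 array left out). *Sdhb*, a subunit of complex II, had -0.58 (adjusted p = 0.0223, and at most 0.207 with 1 array left out). *Ppm1k*, the phosphatase of branched-chain ketoacid dehydrogenase, had -0.83 (adjusted p = 0.00669, and 0.0715 without severe line replicate 3). More stable were *Rxrg*, a nuclear receptor partner of PPARs, at -0.82 (SE 0.14, adjusted p = 0.000864) and *Fitm2*, which helps form lipid droplets, at -0.76 (SE 0.13, adjusted p = 0.000738). Both passed with any 1 array left out, while with a common median scaling 0 members of their lists fell. Other *Fitm2* probes had -0.65 (adjusted p over all probes 0.341) and -0.10 (0.802) and did not pass.

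**Figure D4:**
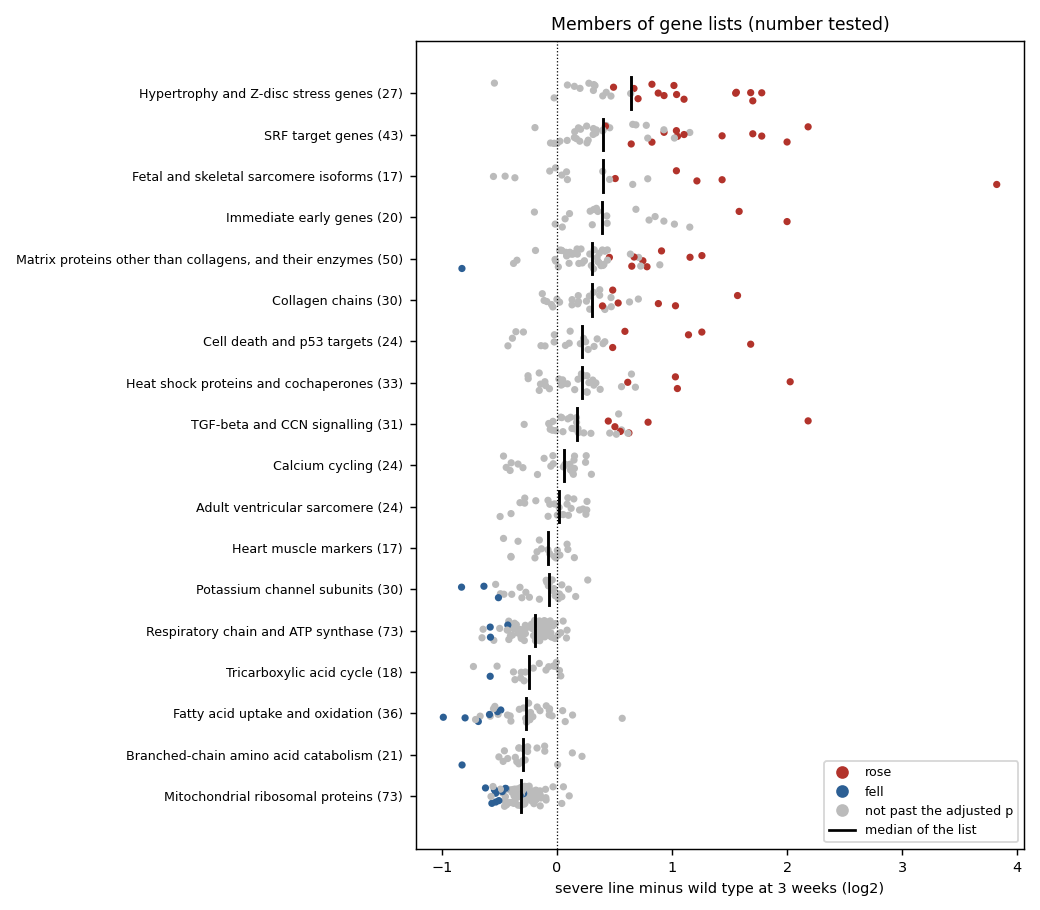
Members of 18 gene lists, 1 point per gene, by log2 difference between severe line and wild type hearts at 3 weeks (x axis), with the number tested after each name. Red points rose, blue points fell, grey points did not pass the adjusted p, and black bars are medians. Medians run from 0.64 for hypertrophy and Z-disc genes to -0.32 for mitochondrial ribosomal proteins.

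Of 24 calcium cycling genes 0 rose and 0 fell in limma, with a median of 0.06. Without severe line replicate 2, 0 rose and 2 fell. *Pln*, phospholamban, which inhibits the calcium pump, read 11.49, 11.79 and 10.82 in the severe line and 11.82, 11.51, 11.46 and 12.54 in wild type on the log2 scale, a difference of -0.47 (SE 0.45, adjusted p = 0.696). *Ryr2*, the calcium release channel, read 11.67, 12.15 and 11.49 against 12.05, 12.13, 11.81 and 12.45, a difference of -0.34 (SE 0.29, adjusted p = 0.643). Both overlapped wild type, and the pump gene *Atp2a2*, also near the highest value on any array, had -0.03 (SE 0.09, adjusted p = 0.917). By real-time RT-PCR the paper found *Pln* and *Ryr2* reduced in severe line hearts of this age, less so than in the mild line. Potassium channel subunits held 3 falls and 0 rises among 30, of which *Kcnv2*, a silent subunit, at -0.83 (SE 0.15, adjusted p = 0.00121) passed with any 1 array left out. *Kcnh2*, of the rapid delayed rectifier, had -0.64 (adjusted p = 0.0267) and *Kcnn1*, of the calcium-activated channels, -0.51 (adjusted p = 0.0207), at most 0.15 and 0.198 with 1 array left out. *Scn4b*, a β subunit of the sodium channel, fell by 0.93 (SE 0.16, adjusted p = 0.00129), and *Cacna1h*, a T-type calcium channel of fetal heart, rose by 0.81 (adjusted p = 0.012), at most 0.138 with 1 array left out.

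Among other genes the study discusses, the tropomyosin gene *Tpm2* had 0.66 (SE 0.19, adjusted p = 0.0521). A second *Tpm2* probe gave 2.03 (SE 0.29, adjusted p over all probes 0.000288), and the third, not detected in wild type, passed as well (0.00523). The pleckstrin-like gene *Phlda1* had 0.40 (adjusted p = 0.168) and the amylase gene *Amy2a5* -0.25 (adjusted p = 0.337). *Sun3*, which encodes a SUN domain protein, fell by 0.66 (SE 0.11, adjusted p = 0.000566). *Rbfox1*, a muscle splicing regulator, read 11.07, 11.66 and 11.07 in the severe line against 11.80, 11.88, 12.18 and 12.00 on the log2 scale, below all wild type hearts, with a difference of -0.70 (SE 0.22, adjusted p = 0.0741). The reference gene *Gapdh* had -0.01 (adjusted p = 0.978).

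Markers of further cell types did not rise. Of 27 endothelial markers 0 rose and 0 fell, with summed signals of 33183 to 37224 in the severe line and 31750 to 36024 in wild type. Of 23 macrophage and myeloid markers 0 rose and 1 fell, with sums of 8805 to 12211 against 11193 to 13754. The fall was that of *Adgre1*, a receptor of mature macrophages, at -0.38 (adjusted p = 0.0474), which passed in 1 of 7 omissions (highest adjusted p = 0.301). Of 7 lung markers 0 rose and 0 fell, although the sums were 3194 to 5660 against 5262 to 11683.

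The severe line was then set against the mild line of the same age directly, in the fit of all 24 arrays, where wild type arrays enter only through the estimate of the spread. Of 12011 genes 69 differed at an adjusted p under 0.05 (0.574%), 54 higher and 15 lower in the severe line. The numbers were 10 and 4 with only these groups in the fit, and the higher ones were 31 without severe line replicate 1 and 110 without replicate 2. Among the 68 affected genes 12 did, all higher in the severe line, and since they were chosen by the severe line arrays, which enter this contrast too, the number is a description. They were *Tnnt1*, *Tpm3*, *Gria3*, *Ildr2*, *Chodl*, *Sypl2*, *2900055J20Rik*, *Kif1a*, *Pde1b*, *Rab15*, *Tagln* and *Ppp1r1a*. *Tnnt1* read 11.56 to 11.91 in the mild line, which lies between wild type and the severe line, and differed between the lines by 2.10 (SE 0.28, adjusted p = 0.000221). *Tpm3* read 7.67 to 7.99 in the mild line, within or below most of the wild type values, a difference of 1.79 (SE 0.33, adjusted p = 0.00731). For *Sypl2* the mild line read 6.83 to 7.26, near the wild type values, a difference of 1.21 (SE 0.16, adjusted p = 0.000201). The *Celf4* probe differed between the lines by -0.31 (SE 0.23, adjusted p = 1).

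Genes with the largest differences between the lines were mostly ones that did not pass the test between the severe line and wild type. *Mybphl*, an atrial myosin-binding protein, read 12.28, 12.90 and 11.81 in the severe line, 8.87 to 10.47 in the mild line, and wild type hearts 12.43 to 12.88 on the log2 scale, 2.79 (SE 0.30, adjusted p = 1.96e-05) higher in the severe than the mild line. *Myom2*, of the M-band, was 2.01 higher (SE 0.34, adjusted p = 0.00321) and *Hopx* 1.99 higher (SE 0.31, adjusted p = 0.00153). Against wild type, *Mybphl* had -0.28 (adjusted p = 0.722) and *Myom2* 0.20 (adjusted p = 0.84) in the severe line. In the other direction *Cep70*, a centrosomal protein, was not detected in the severe line, where it read 6.49, 6.40 and 6.50. In the mild line it read 9.36 to 9.58, at least 6.99-fold higher (adjusted p = 1.68e-14). Wild type arrays did not detect *Cep70* either, at a mean of 6.45, and the severe line had 0.01 against them (adjusted p = 0.973). *Pcp4l1* (-1.06), the secretoglobin *Scgb1c1* (-0.89), the inositol phosphate kinase *Ip6k3* (-0.82) and the phosphatase *Ptp4a3* (-0.76) were lower in the severe than the mild line (adjusted p at most 0.00731 from limma), and none of these 4 passed the test between severe line and wild type. The comparisons of the lines with wild type share their wild type arrays. Side by side, the median size of the log2 difference over the 68 affected genes was 1.29 in the severe and 0.798 in the mild line. The 68 were chosen for their size on the severe line arrays, so a larger median there was built in. In the mild line 70 of 12011 genes were affected against wild type, and 28 genes were affected in both lines. Of the 68, 66 had the same sign in the mild line.

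At 24 weeks other mice of the severe line were compared with wild type mice of that age, again of both lines, so the comparisons share no arrays. There 188 genes were affected (1.57% of those tested). Of the 68 genes affected at 3 weeks 41 were among them, 31 higher and 10 lower at both ages, which is 60.3% of the 68 and 21.8% of the 188. The other 27 were affected at 3 weeks only, though 60 of the 68 passed the adjusted p at 24 weeks and 67 had the same sign. The median size over the 68 was 1.29 at 3 and 1.18 at 24 weeks. The 68 were chosen for their size at 3 weeks, so the medians are a description. Values at 24 weeks were close to those of 3 weeks for *Nppb* (1.74), *Nmrk2* (2.44), *Ccn2* (1.89), *Myl1* (1.17) and *Ano10* (-1.85). The exception in sign was *Chac1*, at -1.04 at 3 and 0.27 (adjusted p = 0.442) at 24 weeks.

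The change of the difference from wild type between 3 and 24 weeks was tested itself. It passed the adjusted p for 82 of 12011 genes (0.683%), 54 upward and 28 downward. Within the first 12 arrays 33 and 9 passed, and without the second wild type mouse of the severe line 32 passed upward. Of the 68 affected genes 7 did, all with a smaller size at 24 weeks, which is a description since they were chosen for their size at 3 weeks. *Tnnt1* went from 3.82 to 2.01, and *Hspa1a* from 2.03 to 0.12 (adjusted p of the change 0.0183). *Sypl2* went from 1.35 to 0.03 (0.000813), *Fkbp5* from 1.43 to 0.13 (0.0172) and *Ppp1r1a* from 1.77 to 0.70 (0.003). The others were *Chac1* (0.0408) and *Mylk2* (0.00157), which has no exact size since its probe was not detected in wild type at 3 weeks.

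The 5 largest upward changes with age that passed the adjusted p were those of genes that did not pass the test at 3 weeks. *Comp*, a matrix protein of cartilage and tendon, had 0.35 (adjusted p = 0.477) at 3 weeks, *Lgals3*, galectin-3, 0.20 (0.83), *Ecrg4*, a secreted peptide precursor, 0.35 (0.367) and *Pvalb*, a calcium buffer of fast muscle, 0.25 (0.54). *Serpina3n*, a protease inhibitor, had -0.65 (adjusted p = 0.129). Their differences moved upward by 1.65 to 2.50 between the ages. Downward, after *Hspa1a* and *Tnnt1*, *Amy2a5* moved by -1.53 and the cytochrome *Cyp2b10* by -1.44, and at 3 weeks *Cyp2b10* had -0.11 (adjusted p = 0.74) from a probe detected on 1 severe line and 2 wild type arrays.

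**Figure D5:**
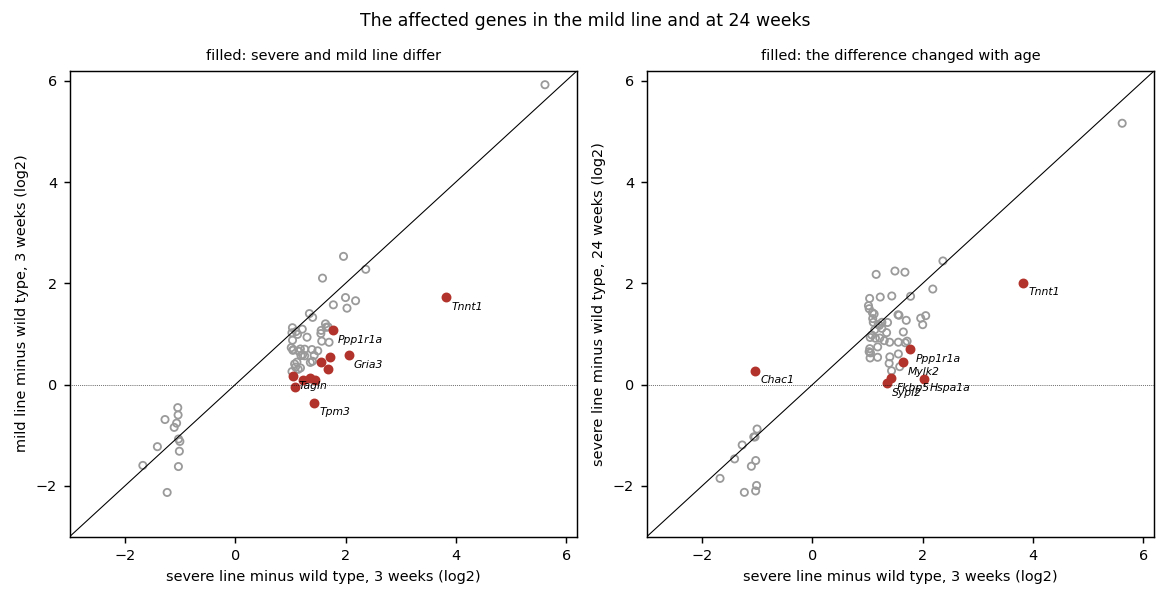
The 68 affected genes by their log2 difference from wild type in the severe line at 3 weeks (x axis of both panels) against the difference in the mild line at 3 weeks (left, sharing wild type arrays) and in the severe line at 24 weeks (right, other mice). Filled points passed the adjusted p of the contrast of lines (12 genes) or of ages (7 genes), and the line marks equal values. Differences are as measured, also for *Celf4*, *Gria3*, *Mylk2* and *Col22a1*, which wild type arrays of 3 weeks did not detect. *Tnnt1* lies below the line in both panels, at 1.72 in the mild line and 2.01 at 24 weeks.

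Each gene above was represented by its brightest kept probe. Over all 22663 kept probes 96 were affected, 11 of them without a gene symbol. Of the 68 affected genes 28 had other kept probes, 44 in all, of which 37 had the same sign and 21 also passed the adjusted p over probes. The 1 other probe that passed in the opposite direction was that of *Nmrk2* given above. These numbers cover the 68 genes only. Other genes that rose or fell could have probes that did not pass, such as *Fbln2* (0.31, adjusted p over all probes 0.661) and *Scn4b* (-0.11, 0.759). Some had another probe that passed, such as *Dusp23* (-0.57, adjusted p over all probes 0.00505), *Kcnh2* (-0.53, 0.00595) and *Tmod4* (-0.62, 0.000902). For *Cpt2* another probe passed (-0.84, 0.00143) and a further one did not (-0.78, 0.364).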

How the data were processed

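RNA of whole hearts from 24 female FVB/N mice was hybridized, on Illumina MouseWG-6 v2 BeadChips, with each mouse on an array of its own, and the 7 arrays described in the report entered the main comparison. Groups came from the labels of the samples. The log2 values deposited by the authors had been quantile-normalized between the 24 arrays and were taken unchanged, so a common shift of most genes would not be seen, and without background correction they understate folds of dim probes. Raw bead intensity values, also deposited, served for the alternatives. The deposited detection p-values compare a probe with negative controls. For the array software, a name and version are not given in the sources used here. An earlier series that the study combined with these arrays was not used here, nor were 48 columns of bead numbers and errors.

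Probes entered the fit if 3 or more of the 24 arrays detected them (p below 0.05), as 22663 of 45281 did. Of all probes 34885 had 1 gene symbol, 18 had several and 10378 had none, and only the first kind was used for genes. The brightest kept probe stood for a gene, and 4638 of the 12011 genes had more than 1. Levels of different probes were not compared. All 24 arrays were fitted as 6 groups with limma 3.58.1 (lmFit and eBayes) in R 4.3.3, with Benjamini-Hochberg adjustment over all genes. The thresholds for affected genes follow the methods of the paper. Lists are described by counts and medians, without a set test.

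The comparison, the gene lists and the alternatives were chosen with earlier results of these data known. Genes named were the affected genes, those named in the paper, up to 6 members per list by size, defining members that did not pass, and the 5 largest each way for the contrasts of lines and ages. Within lists, not all of these are named. Promoters were matched by symbol to RefSeq (GRCm38.p6). Alternatives were normexp background correction, scaling to a common median, other filters and probes, array weights, other samples in the fit, blocks for replicate number and title order, and leaving out each array. The steps were tested on simulated data. The number of arrays limits the precision of every difference.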

Additional observations from a re-analysis of the deposited data

Results flagged for a closer look

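Of the 151 named genes that were tested, 6 had a wild type heart of 3 weeks that stood apart from the other 3 by Dixon's criterion at 95%, where chance gives about 5% of groups. In 5 of them this was replicate 2 of the mild line's wild type. On the log2 scale it read 9.33 for *Celf2* (the others 9.68 to 9.70), 8.19 for *Comp* (the others 7.75 to 7.82), 11.41 for *Fitm2* (the others 11.54 to 11.57), 7.38 for *Ppp1r1b* (the others 7.88 to 7.98) and 13.01 for *Sdhb* (the others 12.64 to 12.70). For *Synpo2l* it was replicate 1 of the severe line's wild type, at 7.97 against 7.68 to 7.72. The cause was not tested.

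The difference between the severe and the mild line at 3 weeks was tested by limma. It passed the adjusted p for 25 of the named genes, and for 0.574% of all genes tested. Some genes were named because they had the largest differences past the adjusted p in this same contrast. The 25 are therefore a description and cannot be set against the share of all genes. The log2 differences that were positive, higher in the severe line, were those of *Mybphl* (2.79), *Tnnt1* (2.10), *Myom2* (2.01), *Hopx* (1.99), *Tpm3* (1.79), *Gria3* (1.48), *Ildr2* (1.38), *Chodl* (1.35), *Rbfox1* (1.22), *Sypl2* (1.21), *2900055J20Rik* (1.18), *Kif1a* (1.14), *Pde1b* (1.13), *Rab15* (1.12), *Gpx3* (0.90), *Cacna1h* (0.88), *Tagln* (0.88), *Ppp1r1b* (0.72) and *Ppp1r1a* (0.70). The negative ones were those of *Cep70* (-3.02), *Pcp4l1* (-1.06), *Scgb1c1* (-0.89), *Ip6k3* (-0.82), *Ptp4a3* (-0.76) and *Akap5* (-0.51). *Cep70* was not detected on severe line or wild type arrays of 3 weeks, so its value is a measured difference and only the bound of at least 6.99-fold holds. The 2 lines differ in the site and the level of the transgene together, so these cannot be told apart.

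The change in the difference between severe line and wild type from 3 to 24 weeks passed the adjusted p for 18 of the named genes. Over all genes tested 0.683% passed. Here too some genes were named because they had the largest changes past the adjusted p, so the 18 are a description. The difference moved upward, in log2 units, for *Comp* (2.50), *Serpina3n* (2.46), *Lgals3* (2.01), *Ecrg4* (1.65), *Pvalb* (1.65), *Chac1* (1.31) and *Adgre1* (0.96). It moved downward for *Hspa1a* (-1.91), *Tnnt1* (-1.81), *Amy2a5* (-1.53), *Cyp2b10* (-1.44), *Sypl2* (-1.32), *Fkbp5* (-1.30), *Mylk2* (-1.19), *Ppp1r1a* (-1.06), *Dusp8* (-1.03), *Kcnv2* (-0.94) and *Sun3* (-0.81). *Mylk2* was not detected on wild type arrays of 3 weeks, so its value is no exact size. Age was compared between different mice.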

How the results depend on the processing

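The numbers of genes affected upward and downward (56 and 12) became 115 and 37 with normexp background correction and 91 and 3 with a common median. Those past the adjusted p (320 and 235) became 241 and 11 with a common median and 685 and 607 with array weights. Against the wild type mice of the severe line alone 7 were affected downward, and 112 and 70 passed the adjusted p. Within title numbers 1 to 12, 37 and 7 were affected and 59 and 29 passed, and within 13 to 24, 19 were affected downward and 55 and 16 passed. These subsets hold fewer arrays, and 13 to 24 holds 1 severe line array of 3 weeks, assumed to vary like the other groups. With 1 array left out, 43 to 99 genes were affected upward and 6 to 33 downward, and 127 to 471 and 76 to 343 passed the adjusted p. The highest number came without severe line replicate 2 each time, and the lowest without replicate 3 for the higher genes and without replicate 1 for the lower genes. Those past the adjusted p downward were also 156 without the first wild type mouse of the severe line and 154 without that of the mild line.

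Between the severe and the mild line (54 higher and 15 lower), 1 was lower with a common median. With array weights the numbers were 197 and 72, with only these groups in the fit 10 and 4, within title numbers 1 to 12 they were 16 and 6, within 13 to 24, with that 1 array, they were 3 and 2, and with 1 array left out 31 to 110 and 10 to 22. The change with age (54 upward and 28 downward) passed for 14 and 10 genes with a common median, 152 and 61 with array weights, 25 and 16 with only the groups compared, 21 and 10 against wild type mice of the severe line, 33 and 9 within title numbers 1 to 12 and 1 and 0 within 13 to 24, where the 1 severe line array of 3 weeks says nothing about stability. With runs of 6 title numbers as a block 86 passed upward. With 1 array left out 32 to 70 passed upward, of which 34 and 35 came without severe line replicates 2 and 3, and 20 to 39 downward. Apart from what the construction shows, the cause of these changes was not tested.

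With the replicate block, 51 and 12 genes were affected, 357 and 316 passed the adjusted p, 83 were higher in the severe than the mild line and the change with age passed upward for 90. Same-numbered severe line and wild type arrays deviated together only weakly, with correlations of 0.159, 0.129, -0.005 and 0.23, so the arrays share only a number. In all, 105 alternative values of these counts stayed within 1.5 times the main count and 56 did not.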

Other observations

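Further gene lists are given here for the severe line at 3 weeks, though single members may be described above. Over all genes tested 2.66% rose and 1.96% fell. Of 30 tubulins and tubulin-modifying enzymes 3 rose and 1 fell, with a median log2 difference of 0.11, where *Tubb2b*, a β-tubulin, had 0.85 (SE 0.22, adjusted p = 0.0272 from limma, and at most 0.21 with 1 array left out). Of 30 antioxidant and NRF2 target genes 1 rose and 2 fell. The rise, that of *Gpx3*, a secreted glutathione peroxidase, was 0.78 (SE 0.15, adjusted p = 0.00381) and passed with any 1 array left out. Of 33 genes of glucose use and pyruvate dehydrogenase control 3 rose and 3 fell, with *Pfkp*, a phosphofructokinase of nonmuscle tissue, at 0.88 (adjusted p = 0.0431, and at most 0.245 with 1 array left out) among the rises. Of 42 proteasome subunits 1 rose and 1 fell. The fall, *Psme1*, of an activator that interferon induces, was -0.65 (SE 0.11, adjusted p = 0.00102), while of 29 interferon-induced genes 1 rose and 0 fell. Of 28 genes of adrenergic receptors and cAMP signalling and of 17 circadian clock genes 0 rose and 0 fell, with medians of 0.03 and 0.04.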
